A study of Mus musculus with 65 samples.

Results

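Isl1, Isl2, Lhx3, Lhx4, Mnx1, Chat and Slc18a3 are genes that mark newly formed motor neurons, and their expression was followed in neural progenitors sorted for SOX2. These 7 genes were chosen by name as rows of an expression table of 25239 genes, and all 7 were found and passed the filter on low values (a mean of at least 10 normalised reads over all libraries). HM1 mouse ES cells were differentiated to neuromesodermal progenitors (NMPs, day 3) and then received 100 nM retinoic acid with 0, 10, 100 or 500 nM SAG, an agonist of Smoothened that stands in for Sonic hedgehog. Cells of days 4, 5 and 6 were fixed and stained for intracellular proteins, and those with SOX2 were sorted by PAX6, NKX6.1, OLIG2 and NKX2.2 into p3, pMN, p2 and p0-1 progenitors, listed from ventral to dorsal. All groups thus share 1 ES cell line and, after day 3, the same retinoic acid.

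The 65 libraries, with replicates from differentiations that the series describes as independent, fell into 25 groups of 1 to 3. NMPs (0 nM SAG) gave 3 libraries, p3 and pMN (100 and 500 nM) gave 15 each, p2 (10 and 100 nM) gave 15 and p0-1 (0 and 10 nM) gave 17. Day 4 held 4 libraries of p3, 4 of pMN, 3 of p2 and 5 of p0-1, day 5 held 6 of each type, and day 6 held 5 of p3, 5 of pMN, 6 of p2 and 6 of p0-1. Totals were 7615114 to 13484815 reads per library and 9718 to 15963 genes had at least 1 read. A value is a read count divided by a size factor of its library, called a normalised read here, and 1 read was worth 0.717 to 1.36 of them. A sort of bulk cells cannot tell fewer cells with a transcript from less transcript per cell.

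Motor neurons of the spinal cord arise from pMN progenitors, in which Olig2 is the defining factor. As a progenitor leaves the cell cycle it loses Sox2 and switches on the LIM-homeodomain factors Isl1 and Lhx3, which act in one complex, and their paralogs Isl2 and Lhx4. Mnx1, also called Hb9, is a homeodomain factor that keeps interneuron genes off in motor neurons. Chat makes acetylcholine, the transmitter of motor neurons, and Slc18a3 loads it into vesicles. Neighbouring domains share some of the genes. Lhx3 and Lhx4 are also made by early V2 interneurons, the progeny of p2. In the hindbrain, visceral motor neurons with Isl1 but without Lhx3 come from progenitors that express Nkx2-2, as p3 does.

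The members lie on 6 chromosomes of mm10. Isl1 (chr13:116298270-116309688, minus strand) has 6 exons with 2526 exonic bases. Isl2 (chr9:55541149-55546178, plus strand) has 6 exons with 1851 bases, Lhx3 (chr2:26200212-26208249, minus strand) 7 exons with 2375, and Lhx4 (chr1:155701694-155742027, minus strand) 6 exons with 1851. Mnx1 (chr5:29473823-29478470, minus strand) has 3 exons with 1456 bases. Chat (chr14:32408203-32465909, minus strand) has 16 exons with 2810 bases, and Slc18a3 (chr14:32462437-32464850, minus strand) is a single exon of 2414 bases inside the first intron of Chat, on the same strand. No exon of a member overlaps an exon of another gene. Reads of unspliced Chat RNA from that intron would be counted as Slc18a3. The longest stretch shared by transcripts of Isl1 and Isl2 is 23 bases and by those of Lhx3 and Lhx4 20 bases (GENCODE vM21), so no longer run of bases can match both paralogs exactly.

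The 250 bases before the start of 4 members are shown. Isl1 and Lhx3 were taken as 2 of the members called higher in pMN than in each other type with limma (below). Values of single libraries still overlapped between pMN and p3 for both genes, and between pMN and p2 for Lhx3. Chat and Slc18a3 were taken because they share a locus while Slc18a3 was also found in libraries without Chat. They are RefSeq sequences of build GRCm38.p6, read 5′ to 3′ along the gene, from chr13:116309689-116309938 (Isl1), chr2:26208250-26208499 (Lhx3, the upstream one of its 2 starts), chr14:32465910-32466159 (Chat) and chr14:32464851-32465100 (Slc18a3), all on the minus strand. Capitals mark E-boxes, CANNTG, which reads the same on both strands and is the kind of site that basic helix-loop-helix factors such as Neurog2 and Olig2 bind.
Isl1: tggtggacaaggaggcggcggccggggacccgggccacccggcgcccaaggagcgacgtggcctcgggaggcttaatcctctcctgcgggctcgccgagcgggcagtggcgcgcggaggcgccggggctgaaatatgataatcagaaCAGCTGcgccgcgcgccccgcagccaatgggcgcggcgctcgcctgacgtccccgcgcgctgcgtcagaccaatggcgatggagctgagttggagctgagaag
Lhx3: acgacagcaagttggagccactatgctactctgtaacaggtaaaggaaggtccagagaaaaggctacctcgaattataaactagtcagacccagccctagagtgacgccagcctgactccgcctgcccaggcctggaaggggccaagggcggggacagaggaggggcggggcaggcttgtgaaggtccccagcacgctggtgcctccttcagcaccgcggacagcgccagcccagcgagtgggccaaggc
Chat: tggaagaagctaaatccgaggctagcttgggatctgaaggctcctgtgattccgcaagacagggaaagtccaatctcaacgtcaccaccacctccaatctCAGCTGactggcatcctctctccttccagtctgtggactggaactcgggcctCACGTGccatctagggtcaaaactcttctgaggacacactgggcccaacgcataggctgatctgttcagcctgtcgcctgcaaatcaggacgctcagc
Slc18a3: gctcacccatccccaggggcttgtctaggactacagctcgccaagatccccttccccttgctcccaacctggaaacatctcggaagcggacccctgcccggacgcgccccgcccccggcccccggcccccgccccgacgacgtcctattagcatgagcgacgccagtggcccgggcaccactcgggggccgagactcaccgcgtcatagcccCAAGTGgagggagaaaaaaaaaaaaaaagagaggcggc
All 7 members had an entry (8 windows, since Lhx3 has 2). An E-box stood 103 bases upstream of the Isl1 start, 150 and 98 bases upstream of the Chat start and 38 bases upstream of the Slc18a3 start, and none was in the upstream Lhx3 window. Mnx1 had 2, the downstream Lhx3 window 1, and Isl2 and Lhx4 none. Of all 32851 windows of this length in the table, 66.2% hold an E-box. The homeodomain core TAATTA, also the same on both strands, was in none of the 8 windows and in 4.8% of all windows. The Slc18a3 window lies inside the Chat intron.

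Motor neuron genes were found mostly in pMN on days 5 and 6. On day 4 at most 2 of the 7 genes had more than 3 reads in any pMN library (median 0.5). On day 5 it was 4 to 6 genes (median 5), and on day 6 5 to 7 (median 7). In p0-1 no library of any day had more than 2. In p2 the number was 0 to 4 on day 5 and 2 to 4 on day 6. In p3 it was 0 to 5 on day 5 (median 2) and 1 to 6 on day 6 (median 6), the nearest to pMN of the other types. The NMP libraries had 2 or 3.

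**Figure D1:**
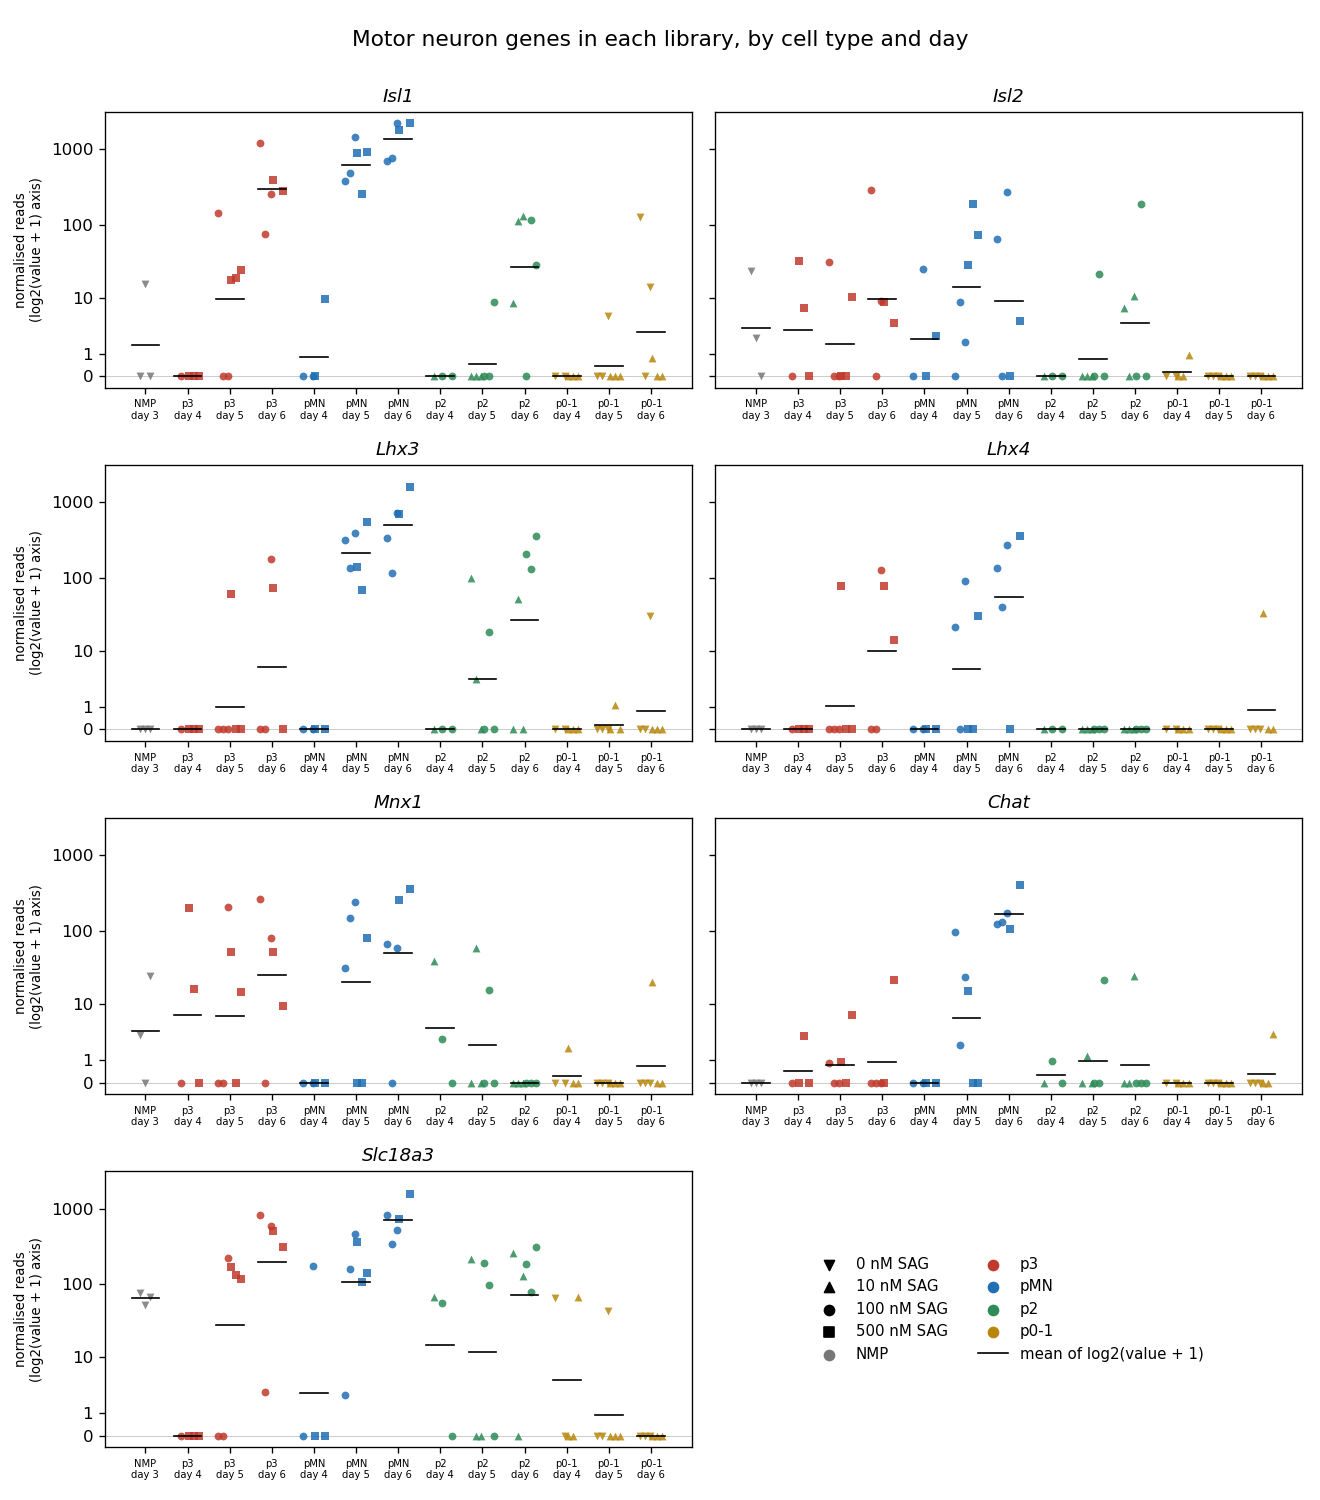
Each point is 1 library, placed by cell type and day on the x axis, with its normalised reads on the y axis (log2(value + 1) scale), and the bars are means of log2(value + 1). Isl1 and Lhx3 are at or near 0 in the 4 pMN libraries of day 4 and between 67.6 and 2239 in all 11 of days 5 and 6, whereas Isl2 reaches 190 or more in single libraries of p3, pMN and p2.

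Isl1, among the earliest of these factors, had the highest level. In pMN on day 4 it was at 0 in 3 libraries and at 9.6 in the other. On day 5 it was at 383, 485 and 1471 normalised reads in replicates 1 to 3 at 100 nM SAG and at 888, 257 and 909 at 500 nM. On day 6 it was at 706, 756 and 2239 at 100 nM and at 1793 and 2227 at 500 nM. All 11 libraries were above every library of p2 (0 to 131) and p0-1 (0 to 127) of those days. In p3 it was at 0 on day 4, at 144, 0 and 0 (100 nM) and 17.5, 19.1 and 24.1 (500 nM) on day 5, and at 1196, 74.3 and 255 (100 nM) and 389 and 278 (500 nM) on day 6. The p3 level was therefore higher in 4 of 5 libraries of day 6 than in any of day 5, and 3 p3 libraries of day 6 (1196, 389 and 278) were above the lowest pMN library of days 5 and 6 (257).

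Lhx3, which sets the somatic motor neuron and V2 fates, had no read in any of the 4 pMN libraries of day 4. On day 5 it was at 320.3, 135 and 388 normalised reads (100 nM) and at 139.5, 67.6 and 556 (500 nM), and on day 6 at 341, 116 and 714 (100 nM) and at 697 and 1579 (500 nM). In p3 it was at 0 in 8 of 11 libraries of days 5 and 6, and the other 3 held 60.4, 72.4 and 177. In p2 on day 6 it was at 206, 129 and 359 at 100 nM and at 0, 52.3 and 0 at 10 nM, and on day 5 between 0 and 100.4. In p0-1 2 of 12 libraries had any, at 1.09 and 30.4. The order of means over days 5 and 6 was pMN (459 ± 436, SD, n = 11), p2 (72.4 ± 112, n = 12), p3 (28.2 ± 56.1, n = 11) and p0-1 (2.63 ± 8.76, n = 12), and p2 and p3 overlapped over most of their range.

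Lhx4, the paralog of Lhx3, was more uneven. In pMN it was at 21.8, 0 and 90.3 (100 nM) and 0, 0 and 30.7 (500 nM) on day 5, and at 136, 40.8 and 275 (100 nM) and 0 and 358 (500 nM) on day 6. It had no read in any of the 12 p2 libraries of days 5 and 6. In p3 it was found in 4 of 11 libraries, at 14.3 to 127, and in p0-1 in 1 of 12, at 33.4. The p2 libraries of day 6 with the most Lhx3 therefore held no Lhx4.

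Isl2, a later partner of Isl1, was uneven within p3, pMN and p2. It was at 0 to 191 normalised reads in pMN on day 5 and at 64.4, 0 and 268 (100 nM) and 0 and 4.4 (500 nM) on day 6. One p3 library (100 nM, day 6, replicate 1) reached 289.5 and one p2 library (100 nM, day 6, replicate 2) 190.4. All 12 p0-1 libraries of these days were at 0. Means over days 5 and 6 were 58.2 ± 90.3 in pMN, 32.1 ± 85.9 in p3 and 19.1 ± 54.3 in p2, so each mean was smaller than its SD and the 3 types overlapped.

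Mnx1 was at 31.5, 150.1 and 239 (100 nM) and 0, 0 and 79.7 (500 nM) in pMN on day 5, and at 67.3, 0 and 59.4 (100 nM) and 258 and 363 (500 nM) on day 6. It was also found outside pMN and on day 4. It was at 200.2 in 1 p3 library and at 38.9 in 1 p2 library of day 4, and 7 of 11 p3 libraries of days 5 and 6 had it, at up to 267. In p2 2 of 12 libraries had it, both on day 5, and in p0-1 1 of 12.

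Chat was the member most restricted to pMN of day 6. It was at 124, 133 and 172 normalised reads (100 nM) and 107 and 410 (500 nM) there, above each of the other 60 libraries. On day 5 the pMN libraries held 96.0, 2.14 and 23.9 (100 nM) and 15.0, 0 and 0 (500 nM), and on day 4 none held a read. The highest value outside pMN was 24.4, in p2 on day 6. In p3 4 of 11 libraries of days 5 and 6 had reads, at up to 21.5.

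Slc18a3 was found far more widely than Chat. It was at 76.1, 51.8 and 66.6 normalised reads in the 3 NMP libraries, none of which had Chat. In pMN it was at 2.42, 159.8 and 459 (100 nM) and 364, 107 and 142 (500 nM) on day 5, and at 830.4, 335 and 519.6 (100 nM) and 734 and 1539 (500 nM) on day 6. In p3 on day 6 it was at 829, 2.79 and 592 (100 nM) and 502 and 313 (500 nM), of which only the library at 313 had Chat (21.5). In p2 8 of 12 libraries of days 5 and 6 had it, at up to 314, and 1 of 12 in p0-1, at 43.2. Slc18a3 was thus read in libraries with no Chat read at all.

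**Figure D2:**
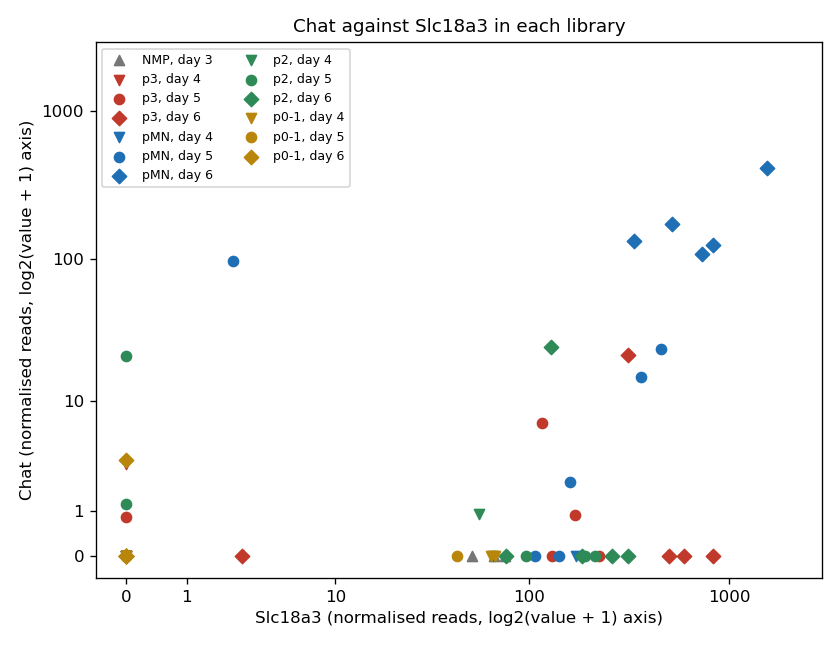
Normalised reads of Slc18a3 (x axis) and Chat (y axis), both on a log2(value + 1) scale, with 1 point per library. The 5 pMN libraries of day 6 lie at the upper right, with Chat from 107 to 410, and p3 libraries of day 6 lie along the bottom with Slc18a3 up to 829 and Chat at 21.5 or less.

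Levels can be compared between genes only per length of exon. Per kilobase, the pMN means of day 6 were 611 ± 302 normalised reads for Isl1, 328 ± 191 for Slc18a3, 290.2 ± 235 for Lhx3, 103 ± 106 for Mnx1, 87.5 ± 82.4 for Lhx4, 67.2 ± 44.8 for Chat and 36.4 ± 62.3 for Isl2 (SD, n = 5). The ranges of neighbours in this order overlapped. On day 5 the order began with Isl1 (289.8) and Lhx3 (113) and ended with Lhx4 (12.8) and Chat (8.13).

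**Figure D3:**
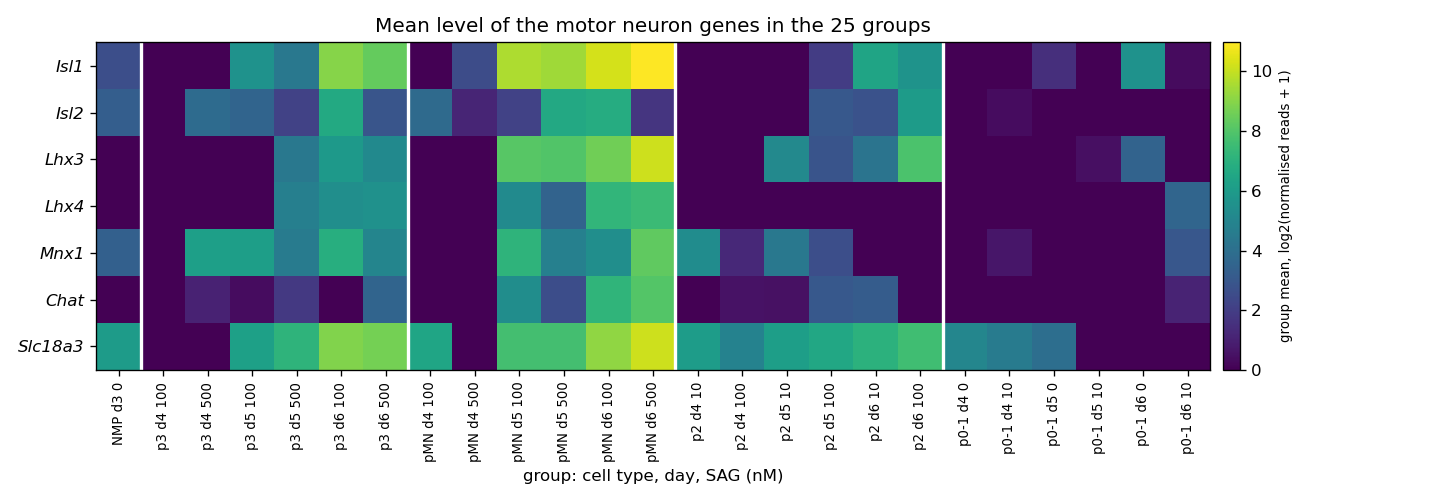
Each cell gives the mean of a gene (rows) in 1 of the 25 groups (columns, by cell type, day and nM SAG) as log2(normalised reads + 1). The brightest cell is Isl1 in pMN of day 6 at 500 nM, the Lhx4 row is at 0 in every p2 group and the Isl2 row is at 0 in all p0-1 groups of days 5 and 6.

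To ask which members set pMN apart from its neighbours, cell types were compared over days 5 and 6 with limma on log2(value + 1). Called means more than 2-fold apart with an adjusted p (Benjamini-Hochberg) under 0.01. Changes are differences of means on that log2 scale, with their SE, and they are not the log2 of a ratio of means. The change was larger than that log2 for Lhx3 against p3 (change 6.55, ratio of means 16.3). It was smaller for Lhx4 against p0-1 (change 3.69, ratio of means 31.2). Against p3, 3 of the 7 members were higher in pMN and called, beside 0.695% of all 13964 genes tested. They were Lhx3 (log2 change 6.55 ± 0.90, adjusted p = 3.33e-06), Chat (4.17 ± 0.63, 2.55e-05) and Isl1 (4.07 ± 0.85, 0.00346). Slc18a3 (1.82 ± 1.23), Lhx4 (1.72 ± 0.85), Mnx1 (1.49 ± 1.05) and Isl2 (1.07 ± 0.96) were not called, with adjusted p from 0.439 to 0.736. The median over the members was 1.82, and over all genes 0.09. These calls depended on the model and on single libraries. Within limma, Isl1 and Chat missed in the fit of the compared groups alone, and Isl1 with array weights. With edgeR none of the 3 passed (adjusted p = 0.0983 for Lhx3 and 0.144 for Isl1) and with DESeq2 only Lhx3 did, and Isl1 also missed when either replicate 3 of pMN or replicate 3 of p3 at 500 nM on day 6 was left out (adjusted p up to 0.0164). All 4 floor plate markers were lower in pMN and called, among them Foxa2 (-5.55 ± 1.21), Shh (-5.44 ± 0.85) and Ntn1 (-2.07 ± 0.25). The 4 summed to 5149 to 14699 normalised reads in p3 and to 754 to 1907 in pMN on day 6, and their part in the result was not tested.

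Against p2, 4 members were called, all higher in pMN, beside 0.107% of all genes. Isl1 differed by 7.22 ± 0.83 (adjusted p = 1.75e-07), and it stayed called under every alternative run. The ratio of its mean values, a separate measure, was 32.6. Lhx3 (4.93 ± 0.87, 0.00179) and Chat (4.27 ± 0.62, 3.65e-05) were called, but not by edgeR or DESeq2 (adjusted p up to 0.414 and 0.259), and Lhx3 was lost when the third replicate of day 6 pMN at 500 nM was left out (0.0127). Lhx4 (4.11 ± 0.83) only just passed, with an adjusted p of 0.00935, and missed when any of 17 of the 23 libraries was left out. With no read in p2, its pMN mean was at least 27.9-fold higher, set against 3 reads per p2 library. Mnx1 (4.44 ± 1.02) missed the threshold at an adjusted p of 0.0246, Slc18a3 (3.21 ± 1.19) and Isl2 (1.88 ± 0.93) at 0.275 and 0.469. The median over the members was 4.27, and over all genes 0.09.

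Against p0-1, 6 members were called, all higher in pMN, beside 0.96% of all genes. Isl1 (8.69 ± 0.83, adjusted p = 7.80e-11), Lhx3 (7.93 ± 0.87, 5.45e-09) and Slc18a3 (7.68 ± 1.19, 1.83e-05) changed most. Chat (4.95 ± 0.62), Mnx1 (4.91 ± 1.02) and Lhx4 (3.69 ± 0.83) were also called, the last with an adjusted p of 0.00571 that missed the threshold in 8 of the 23 fits that left out 1 library, at most 0.0982. Chat was lost with DESeq2 (adjusted p = 0.0362), Mnx1 with edgeR (0.0149), and Lhx4 with edgeR and in the fit of the compared groups alone. Isl2 (3.43 ± 0.93) was not called, at an adjusted p of 0.0355, although 8 of 11 pMN libraries had reads and 0 of 12 p0-1 libraries did. Its pMN mean was at least 19.9-fold higher, set against 3 reads per library. The median over the members was 4.95, and over all genes 0.01.

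**Figure D4:**
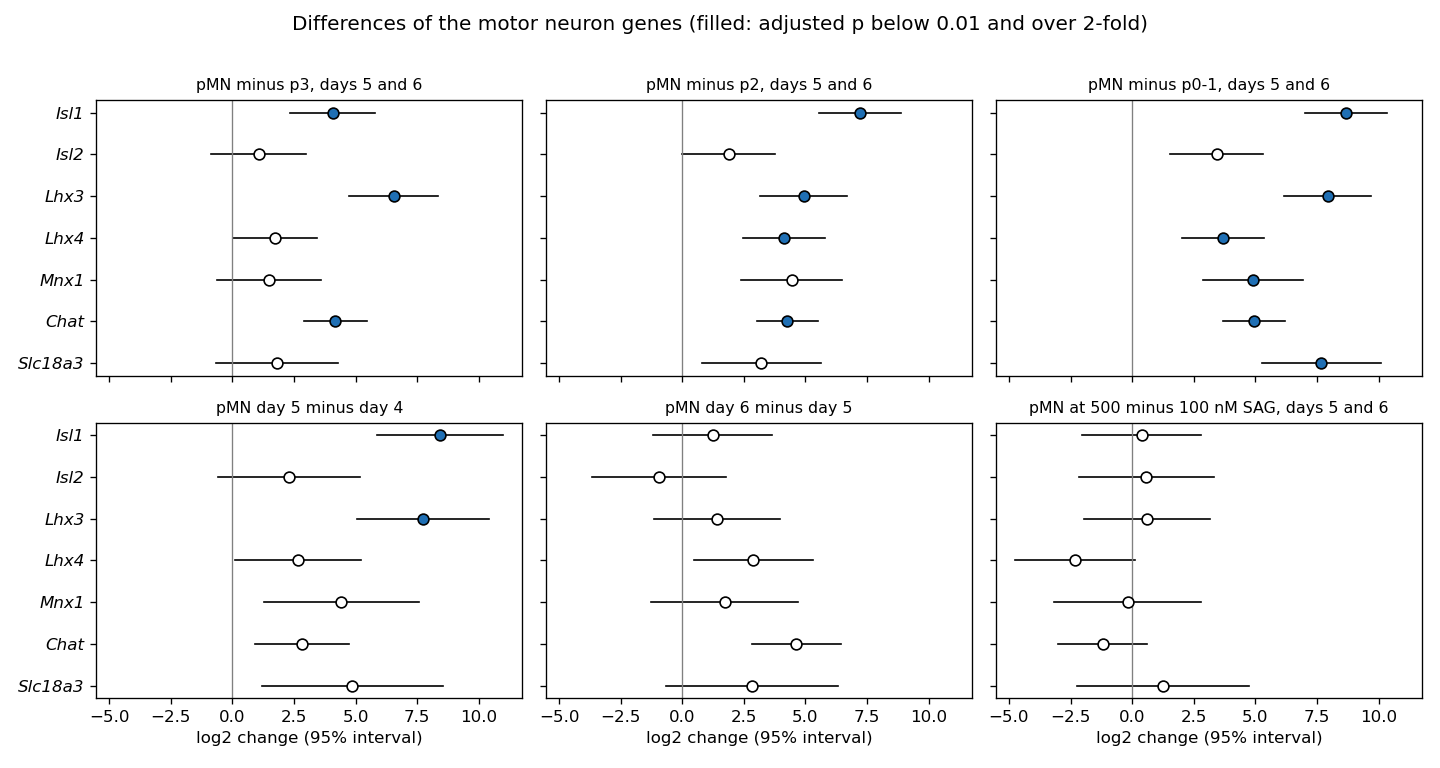
Log2 change (x axis) of each member (y axis) with its 95% interval in 6 comparisons, from limma on log2(value + 1), where filled points are called. Isl1, Lhx3 and Chat are filled in all 3 comparisons of pMN with another type, and no point is filled for day 6 against day 5 or for 500 against 100 nM SAG.

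The other 3 types were compared in the same way. Between p3 and p0-1, 2 were called higher in p3 beside 1.43% of all genes, namely Isl1 (4.63 ± 0.83, adjusted p = 0.000178) and Slc18a3 (5.87 ± 1.19, 0.00115). Between p3 and p2 none was called beside 1.27% of all genes. At an unadjusted p under 0.05 were 3 members and 2450 of all 13964 genes. The 3 members were Isl1 (3.15 ± 0.83, adjusted p = 0.0180), Mnx1 (2.96 ± 1.02) and Lhx4 (2.39 ± 0.83). DESeq2 called 2 members there, beside 985 of all 13964 genes, and edgeR 0, beside 122. Isl1 passed when replicate 2 or 3 of p3 at 100 nM on day 5 or replicate 2 of p2 at 100 nM on day 6 was left out. Between p2 and p0-1 none was called either, beside 0.322% of all genes. At an unadjusted p under 0.05 were 1139 of all genes and 2 members, Slc18a3 (4.47 ± 1.16, adjusted p = 0.0503) and Lhx3 (3.01 ± 0.85, 0.105). DESeq2 called 3 members, beside 633 of all genes, and edgeR 0, beside 23.

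Different types were also sorted from dishes with the same SAG, which keeps the dose out of the comparison. At 100 nM, pMN differed from p3 in 2 members beside 0.465% of all genes, Lhx3 (6.89 ± 1.20, adjusted p = 0.000515) and Chat (5.58 ± 0.85, 0.000114), on a scale where the median of all genes lay 0.28 higher in pMN. Both were lost with edgeR and in the fit of the compared groups alone, Chat also with DESeq2 (adjusted p = 0.123) and Lhx3 with array weights. The count over all genes, 65, ran from 32 (without replicate 2 of pMN on day 6) to 153 (without replicate 3 of p3 on day 6). Isl1 (4.43 ± 1.13) missed at 0.0268. At 500 nM no member was called by limma (beside 0.122% of all genes), edgeR or DESeq2. At an unadjusted p under 0.05 with limma were 3 members and 947 of all genes. The largest change was Lhx3 (6.20 ± 1.34, adjusted p = 0.0154), which passed without replicate 1 of p3 of day 5 or day 6. Whether the 2 doses differ in this was not tested. Between pMN and p2 at 100 nM, Isl1 (7.19 ± 1.13, adjusted p = 0.00111) and Chat (4.98 ± 0.85, 0.00275) were called, and they were the only 2 genes called of the 13964 (0.0143%), with the median of all genes 0.15 higher in pMN. Over all genes the count was 0 with edgeR and 555 with DESeq2, and it ran from 0 to 48 when 1 library was left out (48 without replicate 2 of p2 on day 6). Neither member passed with edgeR or in the fit of the compared groups alone, nor Chat with DESeq2. The number of members called fell to 1 or 0 in 5 of the 12 fits that left out 1 library, namely replicate 1 or 3 of pMN or 1 or 2 of p2 on day 5 or replicate 3 of pMN on day 6.

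Within pMN, Isl1 and Lhx3 rose between day 4 and day 5. Isl1 changed by 8.43 ± 1.27 (adjusted p = 2.39e-05) and Lhx3 by 7.73 ± 1.34 (0.000244), so 2 members were called beside 0.695% of all genes. For both, all 6 libraries of day 5 were above all 4 of day 4. The mean of Isl1 went from 2.39 to 732 normalised reads, and that of Lhx3 from 0 to 268, at least 109-fold when set against 3 reads per library. The others missed, with Chat at 2.82 ± 0.95 (adjusted p = 0.137), Mnx1 at 4.42 ± 1.56 (0.175) and Slc18a3 at 4.87 ± 1.83 (0.213). edgeR called none of the 7 (adjusted p = 0.0249 for Isl1 and 0.107 for Lhx3), beside 51 of all 13964 genes. DESeq2 called 4 members, beside 854 of all genes.

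From day 5 to day 6 in pMN no member was called, beside 0.0286% of all genes. An unadjusted p under 0.05 was seen for 2 members and for 971 of all 13964 genes. Chat was next to the threshold, at 4.62 ± 0.90 with an adjusted p of 0.0141, and its 5 libraries of day 6 were all above the 6 of day 5 (means 189 and 22.9 normalised reads). It was called when any of 3 libraries was left out, namely replicate 1 of pMN on day 5 at 100 or 500 nM or replicate 1 of day 6 at 500 nM. Neither edgeR nor DESeq2 called a member. Lhx4 changed by 2.89 ± 1.21, Slc18a3 by 2.82 ± 1.73, Isl1 by 1.23 ± 1.20 and Lhx3 by 1.42 ± 1.27. The changes of the 2 steps were not tested against each other.

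Whether these changes were larger in pMN than in the other types was tested as a difference of changes, against the mean change of p3, p2 and p0-1. From day 4 to day 5 the excess in pMN was 6.97 ± 1.49 for Isl1 (adjusted p = 0.0307) and 6.61 ± 1.57 for Lhx3 (0.0512). No member was called, beside 0.00716% of all genes, and 4 members and 952 of all 13964 genes had an unadjusted p under 0.05. From day 5 to day 6 the largest excess was that of Chat, 4.44 ± 1.03 (adjusted p = 0.733). Again none was called, beside 0% of all genes, and 1 member and 565 of all genes had an unadjusted p under 0.05. In each test DESeq2 called 1 member and edgeR 0. Over all genes DESeq2 called 599 in the earlier step and 389 in the later.

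The dose of SAG gave no call for any member with limma. In pMN at 500 against 100 nM the 7 changes ran from -2.32 to 1.26, every 95% interval included 0, and the intervals reached from -4.74 to 4.74, so changes of many-fold in either direction could not be seen. No gene at all was called (0% of all genes, limma; 657 genes and 0 members at an unadjusted p under 0.05), and edgeR and DESeq2 called 0 members. In p3 at 500 against 100 nM no member was called beside 0.0286% of all genes. At an unadjusted p under 0.05 were 1 member (Lhx4, 2.44 ± 1.21) and 1627 of all genes. The median of all genes lay 0.33 higher at 500 nM. In p2 at 100 against 10 nM none was called beside 0.0358% of all genes. At an unadjusted p under 0.05 were 0 members and 1142 of all genes. DESeq2 called 2 members, beside 645 of all genes. The median of all genes lay 0.14 lower at 100 nM. Lhx3 in p2 on day 6 was higher in all 3 libraries at 100 nM (129 to 359) than in the 3 at 10 nM (0 to 52.3). On day 5 its means went the other way, at 6.16 (100 nM) and 34.7 (10 nM). The change over both days was 2.15 ± 1.20 and was not called.

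The other genes of the motor neuron programme were taken from a list of 41, of which 38 were tested. In pMN against p3, 4 were called higher and 1 lower (median 0.66 over the list, 0.09 over all genes). The higher ones were the progenitor factor Pax6 (3.39 ± 0.41), the neurogenic factors Neurog2 (4.30 ± 0.67) and Neurod1 (3.47 ± 0.73) and the LIM-only protein Lmo1 (5.60 ± 1.08). Pax6 was among the proteins used for the sort. In pMN against p2, 4 were higher (median 0.51), which were Olig1 (5.38 ± 0.97), Olig2 (4.52 ± 0.81, used for the sort), Slit3 (3.03 ± 0.35), a guidance ligand, and Slc10a4 (5.55 ± 1.09), a vesicle protein of cholinergic neurons. In pMN against p0-1, 7 were called higher and 0 lower (median 1.24), beside 0.96% of all genes. Slc10a4 was again one of them (6.13 ± 1.09). So were Olig2 (11.1 ± 0.81) and Nkx6-1 (7.45 ± 0.50), whose proteins were used for the sort, so their calls are no separate evidence.

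By their roles, the calls in pMN against p3 fell on 3 of 8 upstream factors, 1 of 4 tested LIM cofactors and 1 of 10 later factors. From day 4 to day 5 in pMN 3 of the 38 rose and 1 fell. Chrna3, an acetylcholine receptor subunit, rose by 8.28 ± 1.44 and Gdpd5, which promotes motor neuron differentiation, by 2.81 ± 0.54. Aldh1a2, which makes retinoic acid, fell by 6.08 on the log2 scale (SE 0.80). From day 5 to day 6 none of the 38 was called.

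The sort for SOX2 was checked against markers. Sox2 was at 759 to 2151 normalised reads in pMN of day 6 and at 1741 to 2480 in p3, so both types still held the transcript. The sum of 8 markers of post-mitotic neurons was 1142 to 2612 in pMN on day 5 and 2355 to 7297 on day 6. It was 978 to 2764 and 3488 to 6287 in p2, 688 to 1998 and 3200 to 4039 in p3, and 315 to 1588 and 1228 to 3182 in p0-1. These sums overlapped between pMN, p3 and p2 on each day. Of the 8 markers, all of which were tested, 0 were called between pMN and p3 and 0 between pMN and p2, and 1 between pMN and p0-1 (Elavl4, an RNA-binding protein of neurons, 2.70 ± 0.49). The staining panel included an antibody to Tubb3, a tubulin of neurons. The study describes the gate for progenitors as live cells with SOX2.

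**Figure D5:**
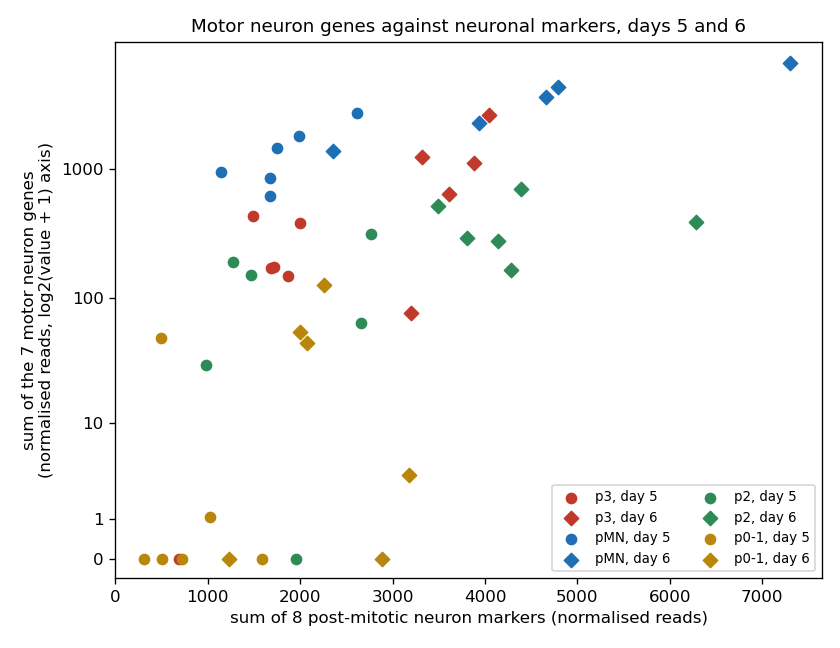
Sum of the 7 motor neuron genes (y axis, log2(value + 1) scale) against the sum of 8 post-mitotic neuron markers (x axis, normalised reads), with 1 point per library of days 5 and 6. The pMN libraries lie above p2 libraries with similar neuronal sums, but not above every such p3 library. On day 6 at 100 nM, replicate 1 of p3 (neuronal sum 4039, motor neuron genes 2581) lies above replicate 1 of pMN (3936, 2269). The other p3 libraries of day 6 lie at 77.1 to 1239 for the motor neuron genes. The pMN library with the highest neuronal sum (7297) also has the highest sum of motor neuron genes (6481).

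The summed members followed the neuronal markers within pMN of day 6, from 1381 in the library with the lowest neuronal sum to 6481 in that with the highest. The library at the top was replicate 3 at 500 nM, which was also the highest of all 65 for Lhx3, Lhx4, Mnx1, Chat and Slc18a3. The part of neurons in the levels of the members was not tested. Of markers of other interneurons, the V3 marker Sim1 was at 0 in every pMN library, but it was at most at 14.6 in p3 as well. Tlx3, Prrxl1 and Pou4f1, markers of dI3 and sensory neurons that also use Isl1, summed to 0 to 103 in pMN on day 6. They summed to 0 to 57.4 in p3, to 0 to 176 in p2 and to 49.3 to 500 in p0-1 on that day. The V2b markers Gata2, Gata3 and Tal1 summed to 0 to 352 in p2 on day 6, to 0 to 434 in p3 and to 0 to 90.1 in pMN. In p3, where 1 library of day 6 (100 nM, replicate 1) had the highest Isl1, Isl2 and Slc18a3 of its type, 4 markers of NMPs and mesoderm summed to 262 in that library and to 0 to 193 in the other 4. The V2b sum was also highest there, at 434 against 0 to 160.4 in the other 4. So was the sum of the post-mitotic neuron markers, at 4039 against 3200 to 3878. The part of these 3 sets of markers in its values was not tested.

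The genes most like the members were sought by Pearson's r over the 25 group means of log2(value + 1), as a description over groups that share libraries of 1 cell line and one normalisation. The mean profile of the members was most like those of Pdzd7 (0.94), Gm7271 (0.90), Slc10a4 (0.87), Angpt1 (0.87) and 1700042O10Rik (0.87). Pdzd7 was also the nearest gene to Isl1 (0.89), Lhx4 (0.90), Mnx1 (0.80) and Chat (0.88), Gm7271 to Lhx3 (0.90), Slc10a4 to Slc18a3 (0.78) and Cdkl4 to Isl2 (0.71). Most of these are low genes, and Pdzd7 had a mean of 45.2 ± 44.4 normalised reads in pMN of days 5 and 6, 21.4 ± 37.3 in p3, 0.09 in p2 and 0 in p0-1. With a pseudocount of 10, Chat was most like 1700042O10Rik (0.87) and Isl2 like Foxd1 (0.67). Among the members r was highest between Isl1 and Lhx3 (0.84) and between Lhx4 and Chat (0.84), and lowest between Isl2 and Mnx1 (0.29). The 2 genes of the shared locus, Chat and Slc18a3, had an r of 0.62.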

How the data were processed

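The processed data are bulk RNA-seq values of 65 libraries (CaTS-RNA-seq, with cDNA amplified from fixed, sorted cells). The authors aligned reads with STAR in nf-core rnaseq 1.4.2 to mm10, counted them per gene with featureCounts over refGene annotation without duplicates, left out libraries that failed quality control, and deposited a gene signal, which is the read count divided by a size factor per library. Positions, deposited as other values, came from their gene annotation. All 834400 values above 0 were whole multiples of 1 read (tolerance 0.001), so counts were recovered for edgeR 4.0.16 and DESeq2 1.42.0.

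limma 3.58.1 (R 4.3.3) was run on log2(value + 1) over 13964 genes with a mean of at least 10, with 25 group means and an intensity trend (40 residual and 7.4 prior degrees of freedom). Comparisons over days averaged group means. Scripts were tested on simulated data. The reads carry no molecular identifiers, and an interval from a read count alone would cover counting error only, so error was taken as the spread between libraries. The members, lists and comparisons were chosen with earlier results of these data known. The members were named throughout, of the 41 programme genes at most 4 called genes per role with the largest change, and by likeness the 5 nearest genes. Some genes of the lists are counted but not reported here by name. Alternatives were another pseudocount, filter, scaling, sample weights, fit or tool, a replicate block, and leaving out each library. Promoters were RefSeq entries of GRCm38.p6.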

Additional observations from a re-analysis of the deposited data

How the results depend on the processing

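The number of members called moved in several comparisons. Against p3 it was 3, and 1 with a minimum mean of 100, with the compared groups alone or with DESeq2, and 0 with edgeR. Against p2 it was 4, and 1 with a minimum mean of 100, with the compared groups alone or with edgeR. Against p0-1 it was 6, and 2 with a minimum mean of 100. That minimum leaves fewer members to test. For p3 against p0-1 it was 2, and 1 with the compared groups alone and 4 with DESeq2. For p3 against p2 it was 0, and 1 with a pseudocount of 10 and 2 with DESeq2. For p2 against p0-1 it was 0, and 3 with DESeq2. At 100 nM, pMN against p3 gave 2, and 0 with a minimum mean of 100, the compared groups alone or edgeR, and 1 with array weights or DESeq2. At 500 nM it was 0, and 2 with a pseudocount of 10 and 1 with quantile normalisation. For pMN against p2 at 100 nM it was 2, and 1 with a minimum mean of 100 and 0 with the compared groups alone or edgeR. From day 4 to day 5 in pMN it was 2, and 1 with a minimum mean of 100, 0 with the compared groups alone or edgeR and 4 with DESeq2. The excess of that change in pMN gave 0, and 1 with a pseudocount of 10, quantile normalisation or DESeq2. From day 5 to day 6 it was 0, and 1 (Chat) with a pseudocount of 10, no filter or quantile normalisation, and the excess gave 1 with a pseudocount of 10 or DESeq2. For p2 at 100 against 10 nM it was 0, and 2 with DESeq2. DESeq2 also called far more of all genes, for example 985 for p3 against p2, where the main fit called 178. The cause was not tested in any of these.

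Leaving out 1 library at a time gave 2 to 4 members against p2, 0 to 1 for p3 against p2, for pMN against p3 at 500 nM and for pMN day 6 against day 5, and 0 to 2 for pMN against p2 at 100 nM. It gave 2 to 3 against p3, 5 to 7 against p0-1, and 2 to 3 for p3 against p0-1 and for pMN against p3 at 100 nM. For 57 single changes the alternatives were followed one by one. They covered all 7 members for pMN against p3, p2 and p0-1 over days 5 and 6. In the other comparisons only members with an unadjusted p under 0.05 with limma were taken. Of 1674 alternative values of these 57 changes, 0 turned direction, 72 lost the call and 37 gained it. The count of 0 does not test direction for the members in general, as changes near 0 were mostly left out by this choice. None of 28 mean levels moved by over 1 SD when values were rescaled to the mean library total.

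Libraries of different cell types with the same replicate number, day and SAG were only weakly alike. Their deviations from group means correlated with a median of 0.03 over 33 pairs (1 above 0.1). Over 62 such pairs with different replicate numbers the median was -0.02 (0 above 0.1). The main model held no term for the replicate number, so types sorted from the same dish were compared as separate libraries. With the replicate block 1 member (Chat) was called from day 5 to day 6 in pMN instead of 0.

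Over all genes, the calls for pMN against p3 went from 97 to 51 with edgeR and 784 with DESeq2, for pMN against p2 from 15 to 5 and 587, and for pMN against p0-1 from 134 to 99 and 748. Isl2, Lhx4 and Mnx1 were at 0 in 3 or 4 of 11 pMN libraries of days 5 and 6, and Chat in 2.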
